A study of Homo sapiens with 4 samples.

Results

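The aminoacyl-tRNA synthetases of the cytosol and the amino acid response genes governed by the transcription factor ATF4 were followed in Jurkat cells given JQ1, PHA or both. The 38 genes were chosen by name from the 50868 genes in the files, and comprised 20 synthetase genes and 18 response genes. The synthetases are given under the symbols of the files, which lack the final 1 of newer names such as AARS1. Filtering on a mean FPKM (fragments per kilobase of exon, scaled to the mapped fragments of the library) of at least 1 over the libraries kept 11503 genes, among them 37 of the 38. CHAC1 was the member below it.

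Jurkat is an established line of leukaemic human T lymphoblasts, and every library came from this line, labelled wild type. Cells were cultured for 24 h with the solvent DMSO, with 0.5 µM JQ1, with DMSO and 150 ng/ml PHA, or with 0.5 µM JQ1 and 150 ng/ml PHA. JQ1 is a small molecule that displaces the BET bromodomain proteins from acetylated histones, and PHA (phytohaemagglutinin) is a plant lectin that crosslinks T-cell surface receptors. Each condition had 1 library, so no value below has a replicate and no p-value can be given.

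Aminoacyl-tRNA synthetases join each amino acid to its tRNA and so feed the ribosome. Some of them sit together in the multi-synthetase complex, which the AIMP scaffold proteins hold. When amino acids run short, uncharged tRNA activates the kinase GCN2, which phosphorylates eIF2α; general translation then falls while ATF4 mRNA is translated more, and ATF4 raises transcription of amino acid synthesis enzymes, transporters, many synthetases and the stress regulators CHOP (DDIT3) and TRIB3. ATF4 is therefore set largely at translation, and only mRNA was measured here.

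Total counts per library ranged from 18620954 to 19685401, and mitochondrial genes took 6.27% to 7.07% of them. HEXIM1, a gene known to respond to BET inhibition, stood at 36.2 FPKM in DMSO, 109 in JQ1, 34.6 in DMSO + PHA and 104 in JQ1 + PHA. EGR1, an early gene of T-cell stimulation, stood at 0.491, 0.405, 39.9 and 6.85 FPKM in the same order. Both followed the labels. All 8 T-lineage markers were present. Of the 15 markers of B cells, myeloid cells and erythroid cells only CD79A stood above 0.15 FPKM, with 7.48, 1.06, 6.33 and 1.01 FPKM in the order above. Its part in the results was not tested.

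Differences are given as log2 ratios of FPKM + 0.1, a scale that understates the change of low genes, and a gene was called past 2-fold. The error of a single gene is a 95% exact interval of the log2 ratio of its shares of the library's counts; it covers counting error only and holds no variation between cultures. In bulk RNA, fewer cells of a type and less RNA per cell cannot be told apart, and a share of counts is relative to the other genes of the library. The JQ1 comparison without PHA and the one with PHA share no library. Where 4 values follow each other they are in the order DMSO, JQ1, DMSO + PHA and JQ1 + PHA, and where 2 ratios do, the first is without PHA.

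The synthetase mRNAs were lower with JQ1 as a group. Without PHA, 5 of the 20 (VARS, FARSA, YARS, LARS and IARS) were at least 2-fold lower against 8.65% of all tested genes, and 0 were 2-fold higher against 5.22%. With PHA, 2 of the 20 (VARS and FARSA) were at least 2-fold lower against 8% of tested genes, and 0 were higher against 3.69%. Without PHA all 20 ratios lay below 0, with a median of -0.50 beside -0.01 for all tested genes; rescaling FPKM to a common total brought 3 of them (QARS, HARS and SARS) above 0. With PHA 18 of 20 lay below 0, with a median of -0.49 beside -0.02 for all tested genes. The counting interval lay wholly below 0 for 17 of 20 synthetases in each comparison, against 38.7% of tested genes without PHA and 38.2% with PHA, and wholly above 0 for none of the 20, against 36.9% and 34.6%.

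Summed over the 20 genes, synthetase mRNA took 0.482% of all counts in DMSO, 0.312% in JQ1, 0.448% in DMSO + PHA and 0.311% in JQ1 + PHA. The 2 JQ1 libraries were the low ones. The sum was 1.55-fold lower with JQ1 without PHA (log2 ratio -0.63, interval -0.64 to -0.61) and 1.44-fold lower with PHA (-0.53, interval -0.54 to -0.51).

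**Figure D1:**
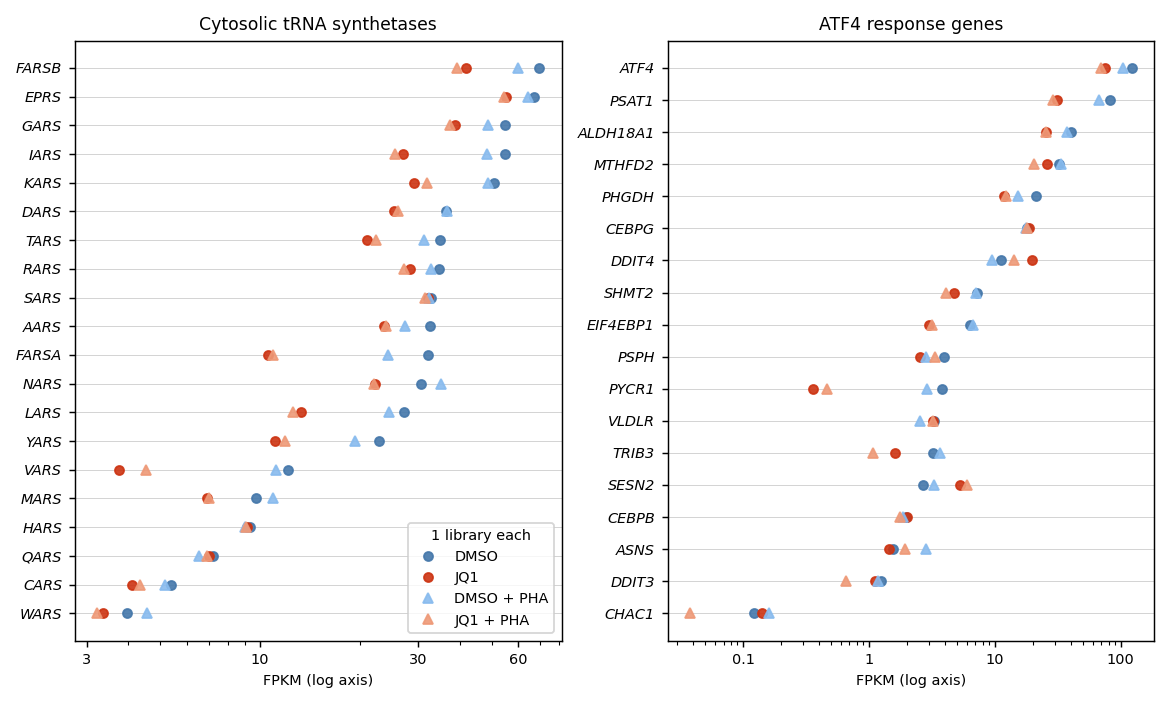
FPKM on a log axis for each synthetase (left) and each ATF4 response gene (right), 1 point per library, with circles for no PHA and triangles for PHA, blue for DMSO and red for JQ1. For VARS and FARSA both red points lie far left of both blue points, while for SARS, HARS and QARS the 4 points nearly coincide; PYCR1 shows the widest gap of all.

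VARS (ENSG00000204394, chr6:31777518-31795953, minus strand, GRCh38), which charges valine, had the lowest ratios of the synthetases. It stood at 12.1 FPKM in DMSO (2327 counts), 3.76 in JQ1 (757 counts), 11.1 in DMSO + PHA (2241 counts) and 4.52 in JQ1 + PHA (860 counts). Both JQ1 libraries lay below both others. VARS was 3.16-fold lower with JQ1 without PHA (log2 ratio -1.66, interval of the count shares -1.80 to -1.57) and 2.43-fold lower with PHA (-1.28, interval -1.42 to -1.19).

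FARSA (ENSG00000179115, chr19:12922479-12934037, minus strand) and FARSB (ENSG00000116120, chr2:222570536-222656337, minus strand) encode the α and β subunits of the phenylalanine enzyme. FARSA stood at 32.0, 10.6, 24.4 and 10.9 FPKM in DMSO, JQ1, DMSO + PHA and JQ1 + PHA (3508, 1212, 2791 and 1186 counts), and was 3.01-fold lower with JQ1 without PHA (-1.59, interval -1.69 to -1.50) and 2.21-fold lower with PHA (-1.15, interval -1.25 to -1.06). FARSB stood at 69.7, 41.8, 59.97 and 39.4 FPKM and was 1.66-fold and 1.52-fold lower. The 2 subunit mRNAs thus did not keep their proportion. FARSB FPKM exceeded FARSA FPKM 2.18-fold in DMSO, 3.95-fold in JQ1, 2.46-fold in DMSO + PHA and 3.60-fold in JQ1 + PHA.

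LARS, IARS and YARS, which charge leucine, isoleucine and tyrosine, lay just past 2-fold without PHA and short of it with PHA. LARS stood at 27.1, 13.3, 24.5 and 12.6 FPKM (6489, 3338, 6126 and 2984 counts), with log2 ratios of -1.02 (interval -1.08 to -0.96) in unstimulated cells and -0.95 (-1.02 to -0.89) in stimulated cells. IARS stood at 54.8, 27.0, 48.4 and 25.6 FPKM (11561, 5959, 10682 and 5339 counts), with ratios of -1.02 (-1.07 to -0.98) and -0.92 (-0.97 to -0.87). YARS stood at 22.8, 11.1, 19.3 and 11.9 FPKM (5124, 2606, 4542 and 2648 counts), with ratios of -1.03 (-1.11 to -0.97) and -0.69 (-0.77 to -0.63). In all 3 genes both JQ1 libraries lay below both DMSO libraries. Their 2-fold calls without PHA, whose intervals all reach above -1, were lost with a pseudocount of 1 or with FPKM rescaled to a common total, which leave 2 synthetases past 2-fold.

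QARS, HARS and SARS, which charge glutamine, histidine and serine, had the smallest differences, and their intervals included 0 in both comparisons. SARS stood at 32.7, 32.2, 32.3 and 31.5 FPKM (3484, 3586, 3603 and 3318 counts), with a ratio of -0.02 (interval -0.09 to 0.04) in unstimulated cells and -0.04 (-0.11 to 0.03) in stimulated cells. HARS stood at 9.35, 9.13, 8.998 and 9.04 FPKM (2201, 2247, 2216 and 2107 counts), with ratios of -0.03 (-0.12 to 0.05) and 0.01 (-0.08 to 0.09). QARS stood at 7.21, 6.9996, 6.55 and 6.91 FPKM (1893, 1921, 1798 and 1794 counts), with ratios of -0.04 (-0.14 to 0.05) and 0.08 (-0.02 to 0.17). These levels are in the range of the other synthetases. At the depth of SARS both counting intervals stayed within 0.11 of 0 on the log2 scale, which does not bound variation between cultures. With FPKM rescaled to a common total, its ratio without PHA was 0.048, just above its counting interval.

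The other 11 synthetases lay between. KARS (lysine) had ratios of -0.80 without PHA and -0.61 with PHA, and TARS (threonine) of -0.73 and -0.48. Ratios without and with PHA were -0.52 and -0.49 for DARS (aspartate), -0.51 and -0.37 for GARS (glycine), -0.49 and -0.63 for MARS (methionine) and -0.46 and -0.67 for NARS (asparagine). The differences were smaller for AARS (alanine) at -0.46 and -0.20, CARS (cysteine) at -0.38 and -0.25, RARS (arginine) at -0.29 and -0.27, EPRS (glutamate and proline) at -0.28 and -0.24, and WARS (tryptophan) at -0.24 and -0.49. Each of the 11, and FARSB, had an interval below 0 in both comparisons.

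**Figure D2:**
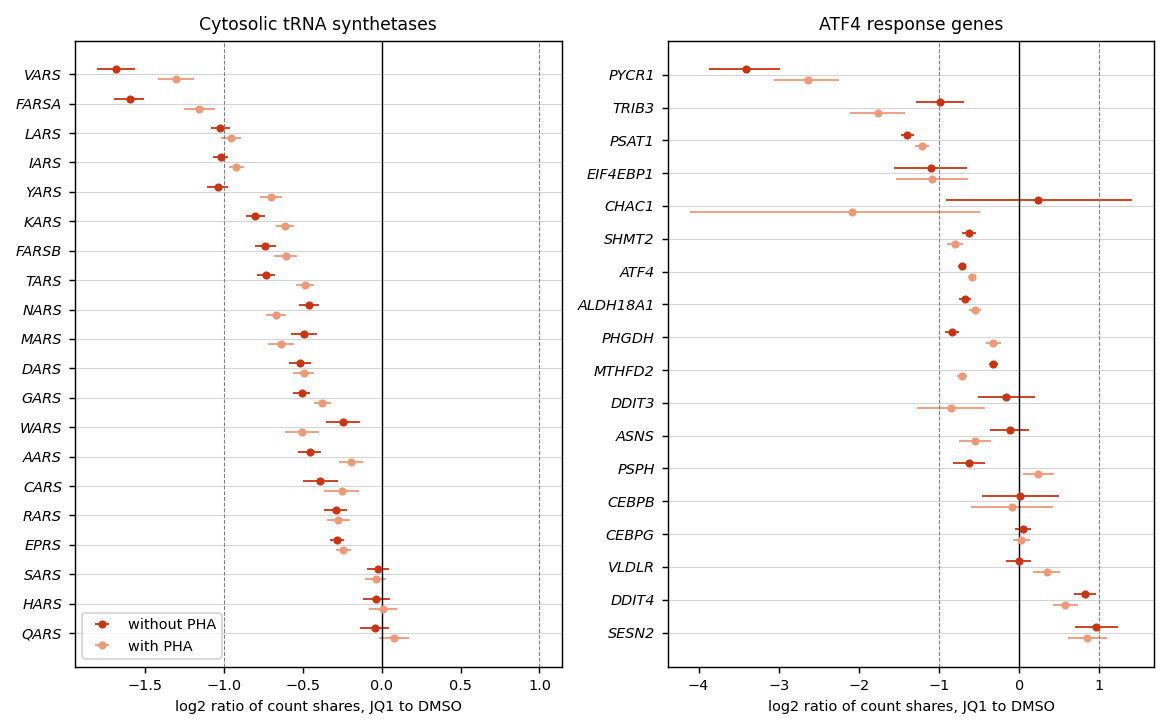
Log2 ratio of the share of counts, JQ1 to DMSO, for each synthetase (left) and ATF4 response gene (right), without PHA (dark) and with PHA (light); bars are 95% counting intervals and dashed lines mark 2-fold. The synthetases run from VARS at -1.68 to intervals that include 0, while the response genes spread to both sides, from PYCR1 at -3.41 to SESN2 at 0.96 without PHA.

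Features of the synthetases that did not enter their choice gave few contrasts. Of the 8 complex members 2 were 2-fold lower without PHA and 0 with PHA, with medians of -0.50 and -0.55; of the 12 outside the complex 3 and 2 were, with medians of -0.48 and -0.49. Of the 10 class I enzymes 4 were 2-fold lower without PHA and 1 with PHA, and of the 10 class II enzymes 1 and 1. Of all tested genes 8.65% were at least 2-fold lower without PHA and 8% with PHA. Whether these short lists differ from that share was not tested. The class I median was -0.43 without PHA and -0.56 with PHA, and the class II median was -0.51 and -0.49. The 13 synthetases known as ATF4 targets had medians of -0.49 and -0.49, and the 7 not known as such had -0.52 and -0.49. FARSA, among the latter, had the second lowest ratios.

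ATF4 acts as a dimer with C/EBP proteins on a composite element with the core TGATGNAA (TTNCATCA on the opposite strand), so the promoters of the members were searched for it on both strands. The windows were those of RefSeq on GRCh38.p14, from 250 bases before to 50 bases after each start site, and 30 of the 38 members matched by symbol; DARS, LARS, VARS, YARS, PSPH, SHMT2, PYCR1 and EIF4EBP1 did not. The core was found in 10 of the 30, comprising 7 of 16 synthetases and 3 of 14 response genes, which is 33.3% of matched members against 4.46% of the 27305 genes in the table and 2.32% of the 8155 of them that passed the filter. The 7 synthetases are shown with the core in capitals, 5′ to 3′ on the strand of the gene, because their sites lie close to the start of transcription in 6 of them:
IARS (chr9:92293692-92293721, minus strand): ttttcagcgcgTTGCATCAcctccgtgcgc
MARS (chr12:57488053-57488082, plus strand): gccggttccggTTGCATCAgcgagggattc
AARS (chr16:70289675-70289704, minus strand): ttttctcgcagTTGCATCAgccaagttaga
CARS (chr11:3057407-3057436, minus strand): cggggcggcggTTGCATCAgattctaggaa
GARS (chr7:30594834-30594863, plus strand): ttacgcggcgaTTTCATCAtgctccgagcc
NARS (chr18:57621804-57621833, minus strand): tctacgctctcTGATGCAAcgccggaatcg
TARS (chr5:33440956-33440985, plus strand): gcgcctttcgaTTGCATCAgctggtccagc

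The core began 13 bases before the start site in IARS, 4 before it in MARS, 2 before it in CARS, 33 before it in GARS and 187 before it in AARS, and 2 and 14 bases after it in TARS and NARS. All 7 are among the synthetases known as ATF4 targets. Since ATF4 acts on this core, the overlap is no independent support for that label. The response genes were chosen for their link to ATF4, so the share among members is likewise no test. In 6 of them the letters read TTGCATCA or its complement, and GARS has TTTCATCA. The 3 response genes are shown for comparison, with the core 42, 68 and 209 bases before the start site:
CEBPG (chr19:33374060-33374089, plus strand): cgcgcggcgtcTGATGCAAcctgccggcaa
ASNS (chr7:97872458-97872487, minus strand): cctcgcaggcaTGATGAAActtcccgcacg
CHAC1 (chr15:40953251-40953280, plus strand): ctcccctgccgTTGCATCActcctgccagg

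Among tested members, the 9 with the core had a median JQ1 ratio of -0.46 without PHA and -0.48 with PHA (range -1.02 to 0.05 without PHA), and the 20 matched members without it had -0.29 and -0.41 (range -1.59 to 0.94). The range of members with the core lay inside that of members without it, which reached further on both sides. IARS, with the core, was 2-fold lower without PHA, whereas CEBPG, also with the core, had the ratios nearest to 0 of the 9. FARSA had no match in its windows. The cyclic AMP response element TGACGTCA was found in 0 of the 30 members against 4.18% of genes that passed, and the E-box CACGTG in 3 (IARS, ATF4 and ALDH18A1) against 13.0%. A match is a description of letters and does not show binding.

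The ATF4 response genes spread more widely. Without PHA 3 of the 17 that passed (PYCR1, PSAT1 and EIF4EBP1) were at least 2-fold lower, against 8.65% of tested genes, and 0 were higher, against 5.22%, with a median of -0.60. With PHA 4 (those and TRIB3) were lower, against 8%, and 0 were higher, against 3.69%, with a median of -0.54. Without PHA intervals lay below 0 for 10 of the 17 and above 0 for 2, against 38.7% and 36.9% of tested genes. With PHA they lay below 0 for 11 and above 0 for 4, against 38.2% and 34.6%. Together the 18 genes took 0.179% of counts in DMSO, 0.119% in JQ1, 0.160% in DMSO + PHA and 0.109% in JQ1 + PHA, a sum to which ATF4 itself gave the most counts. Most of these genes were low in Jurkat cells: 8 of the 18 had a mean FPKM of at least 5.

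ATF4 (ENSG00000128272, chr22:39519695-39522685, plus strand) mRNA stood at 123 FPKM in DMSO (9567 counts), 75.3 in JQ1 (6101 counts), 104 in DMSO + PHA (8440 counts) and 69.4 in JQ1 + PHA (5325 counts), the highest level among the 38 genes. Both JQ1 libraries lay below both others. Its JQ1 ratios were -0.71 (interval -0.76 to -0.67) in unstimulated cells and -0.58 (-0.63 to -0.53) in PHA-stimulated cells, short of 2-fold in each. The retrocopy ATF4P3 held at most 139 counts in a library.

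The partners and targets of ATF4 among transcription factors did not follow it in one direction. DDIT3, which encodes the stress factor CHOP, stood at 1.25, 1.12, 1.18 and 0.653 FPKM (141, 132, 139 and 73 counts), so that the JQ1 + PHA library was the low one; its ratio came to -0.15 (interval -0.51 to 0.19) when PHA was absent and -0.76 (-1.28 to -0.43) when it was present. DDIT3 overlaps MARS on the opposite strand by 982 bases, and how strand entered the counting is not stated, so the 2 genes may share reads there. CEBPG, a dimer partner of ATF4, stayed between 17.6 and 18.5 FPKM, with ratios of 0.05 (-0.06 to 0.15) and 0.03 (-0.08 to 0.13). CEBPB had 64 to 77 counts per library, and its intervals included 0 in both comparisons.

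Among the 8 enzymes of amino acid and one-carbon synthesis, PYCR1 and PSAT1 were past 2-fold in both comparisons. PYCR1 (ENSG00000183010, chr17:81932384-81942412, minus strand), which makes proline from pyrroline-5-carboxylate in mitochondria, stood at 3.80 FPKM in DMSO (489 counts), 0.356 in JQ1 (48 counts), 2.89 in DMSO + PHA (389 counts) and 0.463 in JQ1 + PHA (59 counts). These were the widest differences of any member. The log2 ratio came to -3.09 (8.54-fold lower; interval of the count shares -3.87 to -2.98) when PHA was absent and -2.41 (5.31-fold lower; -3.06 to -2.24) when it was present. The size of these folds depends on the pseudocount: with 1 in place of 0.1 the ratios were -1.82 and -1.41, still past 2-fold. ALDH18A1, the enzyme before it in proline synthesis, stood at 40.3, 25.3, 37.1 and 25.4 FPKM, with ratios of -0.67 and -0.54.

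Serine is made from a glycolytic intermediate by PHGDH, PSAT1 and PSPH in turn. PSAT1 (ENSG00000135069, chr9:78297143-78330093, plus strand) stood at 82.4, 31.3, 66.6 and 28.8 FPKM (4127, 1639, 3491 and 1426 counts), with ratios of -1.39 (interval -1.48 to -1.31) in unstimulated cells and -1.21 (-1.30 to -1.12) in stimulated cells. PHGDH, the first enzyme, stood at 21.2, 11.8, 15.4 and 12.3 FPKM, with ratios of -0.84 (-0.93 to -0.75) and -0.32 (-0.41 to -0.23). PSPH, the last enzyme, was lower with JQ1 without PHA and higher with PHA. It stood at 3.93, 2.55, 2.86 and 3.37 FPKM (535, 363, 407 and 454 counts), with ratios of -0.60 (-0.82 to -0.43) and 0.23 (0.04 to 0.43); its pseudogene PSPHP1 held at most 41 counts.

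The mitochondrial one-carbon enzymes downstream of serine were lower in both comparisons, by less than 2-fold. SHMT2, which moves a carbon from serine to folate, stood at 7.27, 4.72, 7.11 and 4.08 FPKM, with ratios of -0.61 and -0.79. MTHFD2 stood at 32.5, 26.0, 33.8 and 20.6 FPKM, with ratios of -0.32 (interval -0.38 to -0.27) and -0.71 (-0.77 to -0.65). ASNS, which makes asparagine and is a classic ATF4 target, was low, at 1.56, 1.44, 2.82 and 1.93 FPKM (285, 275, 539 and 349 counts). The DMSO + PHA library was its high one, and its ratio came to -0.11 (-0.36 to 0.13) when PHA was absent and -0.52 (-0.75 to -0.35) when it was present.

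The stress effectors pointed in different directions. TRIB3, a pseudokinase induced by ATF4 and CHOP that feeds back on them, stood at 3.20, 1.62, 3.68 and 1.08 FPKM (272, 144, 327 and 91 counts), with ratios of -0.94 (interval -1.28 to -0.69) in unstimulated cells and -1.68 (-2.12 to -1.43) in stimulated cells. EIF4EBP1, which encodes the translation repressor 4E-BP1, stood at 6.39, 2.98, 6.68 and 3.15 FPKM from 129, 63, 141 and 63 counts. Its ratios were -1.07 (-1.56 to -0.65) and -1.06 (-1.53 to -0.64), with both JQ1 libraries below both others. A pseudocount of 1 ended both calls, at -0.89 and -0.89.

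SESN2 and DDIT4, which both restrain mTORC1, were the members higher with JQ1 in both comparisons with intervals above 0. SESN2, whose protein senses leucine, stood at 2.69, 5.25, 3.31 and 5.96 FPKM (175, 357, 225 and 383 counts), with ratios of 0.94 (interval 0.70 to 1.23) in unstimulated cells and 0.83 (0.61 to 1.09) in stimulated cells. DDIT4 stood at 11.1, 19.6, 9.45 and 14.1 FPKM (632, 1166, 562 and 792 counts), with ratios of 0.81 (0.68 to 0.96) and 0.57 (0.42 to 0.73). Neither reached 2-fold, but SESN2 did without PHA when FPKM was rescaled to a common total, at 1.01. VLDLR, a lipoprotein receptor, stood at 3.26, 3.25, 2.55 and 3.24 FPKM (674, 703, 552 and 662 counts), so that the DMSO + PHA library was the low one, with ratios of -0.00 (-0.16 to 0.15) and 0.33 (0.18 to 0.51).

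CHAC1, a glutathione-degrading enzyme and a sharp marker of ATF4 activity, had 13 counts in DMSO, 16 in JQ1, 18 in DMSO + PHA and 4 in JQ1 + PHA, all below 0.2 FPKM. At this depth its interval without PHA ran from -0.91 to 1.41, and with PHA from -4.11 to -0.49.

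By the medians of both lists and the 2-fold calls, differences with PHA were smaller than those with JQ1. Over all tested genes 2-fold calls were fewer with PHA as well. Not every member followed, since ASNS had a larger ratio with PHA in DMSO than in either JQ1 comparison. In DMSO-treated cells 0 of the 37 tested members were past 2-fold in either direction, against 1.19% of tested genes lower and 2.1% higher; in JQ1-treated cells 0 were, against 1.03% and 1.04%. Without JQ1, 13 of 20 synthetases had intervals below 0 and 3 (MARS, NARS and WARS) above 0, against 25.1% and 24.7% of tested genes, with a median ratio of -0.10. With JQ1, 3 had intervals below 0 and 4 (VARS, KARS, YARS and TARS) above 0, against 15.7% and 15.6%, with a median of -0.01. The summed share of counts was 1.08-fold lower with PHA in DMSO (log2 ratio -0.10, interval -0.12 to -0.09) and differed by less than counting error in JQ1 (-0.00, interval -0.02 to 0.02).

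Of the 17 response genes that passed, 8 had intervals below 0 and 3 above 0 with PHA in DMSO. The shares of tested genes were 25.1% and 24.7%. In JQ1 there were 7 and 2, against 15.7% and 15.6%. ASNS had the highest ratio, 0.81 (interval 0.64 to 1.07) in DMSO and 0.40 (0.19 to 0.66) in JQ1. PHGDH had the lowest in DMSO, -0.46 (-0.54 to -0.38), but 0.06 (-0.04 to 0.16) in JQ1. DDIT3 and TRIB3, for which the interval included 0 in DMSO, had ratios of -0.69 (-1.21 to -0.35) and -0.54 (-0.98 to -0.19) in JQ1. ATF4 itself had ratios of -0.25 (-0.29 to -0.20) and -0.12 (-0.17 to -0.06).

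**Figure D3:**
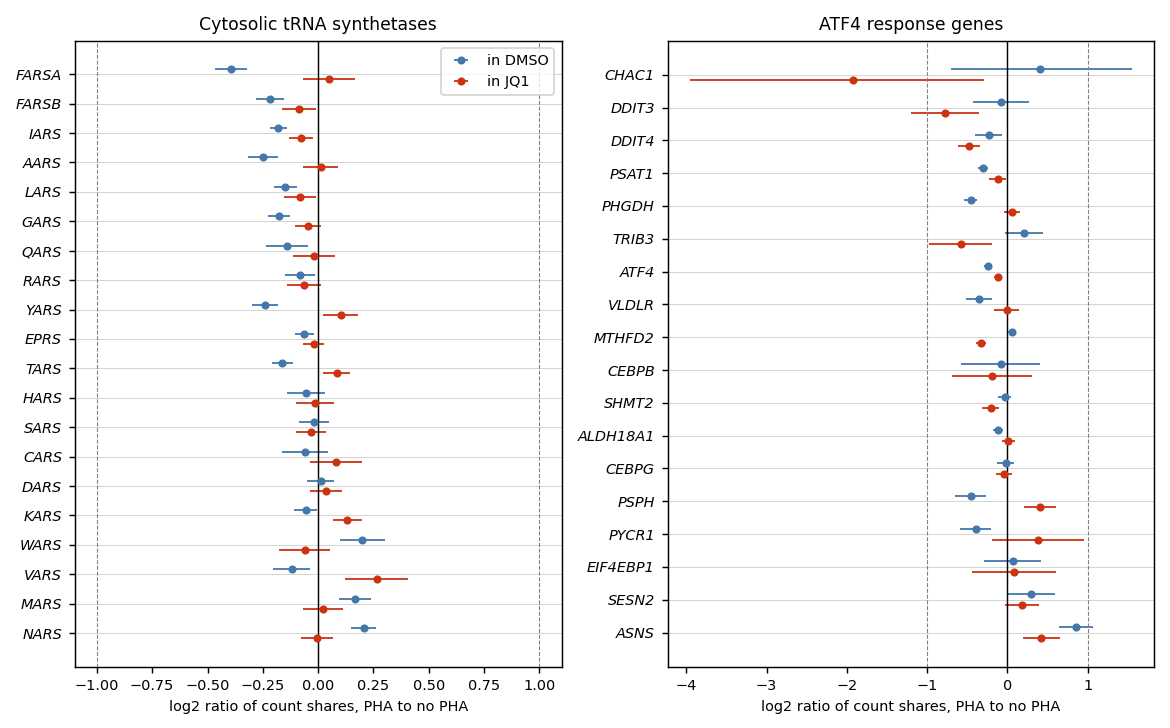
Log2 ratio of the share of counts, PHA to no PHA, for each synthetase (left) and ATF4 response gene (right), in DMSO (blue) and in JQ1 (red); bars are 95% counting intervals and dashed lines mark 2-fold. The synthetases lie between -0.40 for FARSA and 0.26 for VARS, and ASNS lies furthest to the right among the response genes.

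The 2 JQ1 comparisons, which share no library, ranked the members alike. Across the 20 synthetases Spearman's rho of the 2 sets of ratios was 0.884, and across the 17 response genes it was 0.836; these are across genes, which are not independent replicates. The ratio was smaller in size with PHA for 15 of 20 synthetases and 10 of 17 response genes. How often this held over all tested genes was not computed, nor was rho over those genes. Fewer of all tested genes were also past 2-fold with PHA (8% lower and 3.69% higher) than without (8.65% and 5.22%). The interval of the difference, with PHA minus without, lay above 0 for 9 of 20 synthetases and below 0 for 3, against 20.6% and 21.4% of the 11481 tested genes with counts in every library. It was 0.44 (interval 0.31 to 0.58) for FARSA and 0.38 (0.22 to 0.55) for VARS, and -0.26 (-0.41 to -0.11) for WARS, -0.21 (-0.30 to -0.12) for NARS and -0.15 (-0.26 to -0.03) for MARS. Among the 17 response genes it lay above 0 for 7 and below 0 for 6, from 0.86 (0.59 to 1.13) for PSPH to -0.78 (-1.23 to -0.34) for TRIB3.

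Of 7 scaffold and cofactor genes 2 (AIMP2 and EEF1E1, both complex proteins) were at least 2-fold lower in both comparisons, against 8.65% and 8% of tested genes, with list medians of -0.88 and -0.86. TARSL2, a second threonine enzyme of the cytosol, was the one with an interval above 0, with ratios of 0.72 and 0.84. AIMP2 stood at 17.3, 6.36, 15.6 and 6.64 FPKM and EEF1E1 at 17.2, 6.51, 15.9 and 6.62. Of 17 mitochondrial synthetases 1 (YARS2) was 2-fold lower without PHA, against 8.65% of tested genes. With PHA 2 (YARS2 and FARS2) were, against 8%. The list medians were -0.46 and -0.37. YARS2 stood at 8.19, 3.59, 9.31 and 2.54 FPKM.

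The 16 tested genes of the eIF2 kinases and the integrated stress response had medians of -0.37 and -0.28. In each comparison 1 of them was 2-fold higher, against 5.22% and 3.69% of tested genes, and 0 were 2-fold lower, against 8.65% and 8%. The higher gene was PPP1R15A (GADD34), the phosphatase subunit that ends the response, at 4.69, 11.4, 6.04 and 12.6 FPKM. Of 16 tested further ATF4 targets and partners, 5 were 2-fold lower and 3 higher without PHA, against 8.65% and 5.22% of tested genes. With PHA 5 were lower and 1 higher, against 8% and 3.69%. The lower ones were SLC7A1, SLC7A5, SLC7A11 and SLC3A2, which carry amino acids, and the secreted glycoprotein STC2. The cyclin CCNG2, SLC38A2, which also carries amino acids, and the autophagy gene MAP1LC3B were the higher ones, at ratios of 1.61, 1.09 and 1.03 without PHA.

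Of 10 tested one-carbon and glycine enzymes 3 (MTHFD1L, GLDC and MTHFD1) were 2-fold lower without PHA, against 8.65% of tested genes. With PHA 2 (MTHFD1L and GLDC) were, against 8%. MTHFD1L, the mitochondrial partner of MTHFD2, stood at 14.8, 2.40, 12.2 and 2.16 FPKM. GLDC, which cleaves glycine, stood at 1.58, 0.394, 8.48 and 0.593 FPKM, so that the DMSO + PHA library was its high one. Among 9 tested genes of proline, asparagine, aspartate and glutamine metabolism, the proline catabolic enzyme ALDH4A1 was past 2-fold higher without PHA (ratio 1.37). GOT2 was past 2-fold lower without PHA (-1.04), and 0 of the 9 were past 2-fold with PHA. Of all tested genes 5.22% were higher and 8.65% lower without PHA, and 3.69% and 8% with PHA.

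Of 20 endoplasmic reticulum chaperones and genes of other unfolded protein response arms, 5 were 2-fold lower without PHA and 6 with PHA. The shares of tested genes were 8.65% and 8%. In each comparison 0 of the 20 were 2-fold higher, against 5.22% and 3.69%. CALR stood at 208, 69.3, 206 and 82.7 FPKM and HSPA5 (BiP) at 192, 83.1, 195 and 80.2, with SDF2L1, PDIA6 and XBP1 also lower in both, and HSP90B1 with PHA. The 15 tested genes of mTORC1 amino acid sensing had medians on the other side, 0.32 and 0.22. SESN3, a relative of SESN2, stood at 6.50, 28.0, 7.29 and 26.6 FPKM, a ratio of 2.09 without PHA and 1.85 with PHA. TSC1 had ratios of -0.90 without PHA and 1.70 with PHA, from 7.20, 3.81, 2.97 and 9.86 FPKM.

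**Figure D4:**
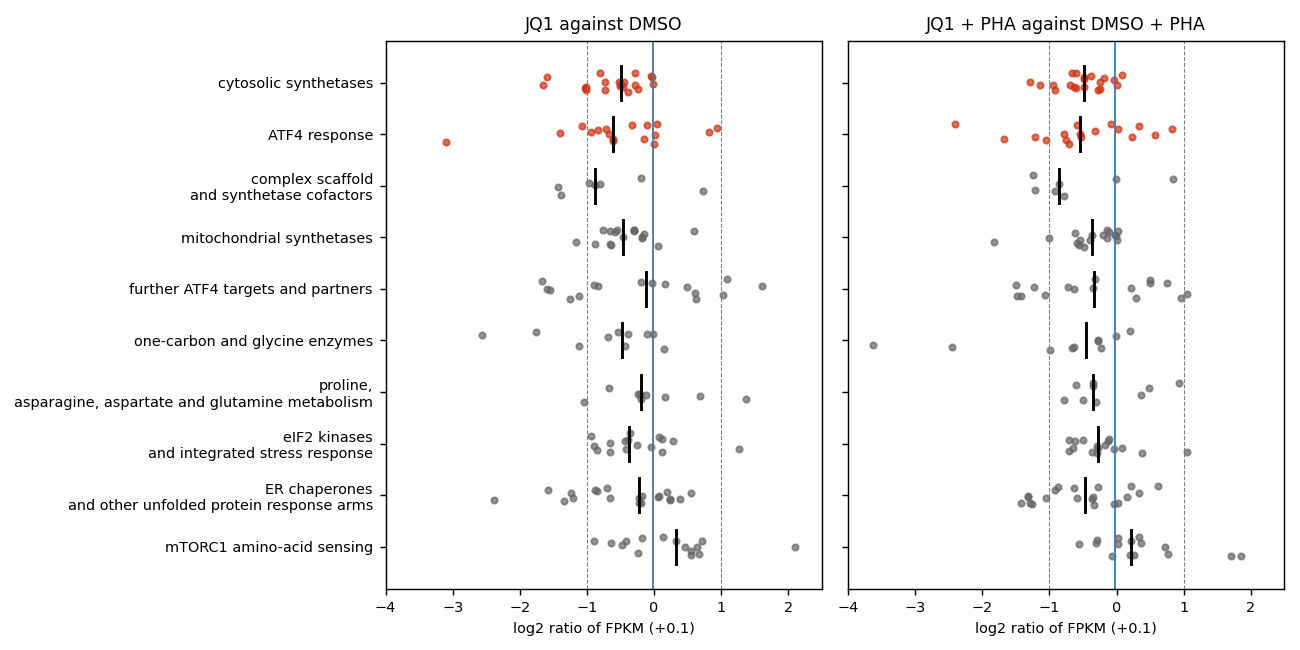
Log2 ratios of FPKM + 0.1 for the members (red) and for related gene lists (grey), JQ1 against DMSO (left) and JQ1 + PHA against DMSO + PHA (right), 1 point per tested gene; black bars are list medians, the blue line is the median of all tested genes and dashed lines mark 2-fold. The scaffold and cofactor list has the lowest median in both panels, -0.88 and -0.86, and the mTORC1 sensing list is the one with a median above 0.

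Of the 38 members, 6 overlap, in the files' coordinates, the locus of another gene that passed the filter. Besides DDIT3 and MARS these are HARS (HARS2 by 599 bases and WDR55 by 952), KARS (TERF2IP by 858), WARS (WDR25 by 388) and YARS (S100PBP by 1387), and MARS overlaps ARHGAP9 by 13370 bases. All of these lie on opposite strands, and without the strand setting of the counting their shared reads cannot be assigned. Among the 2-fold calls, YARS is the one that rests on such a gene. Overlaps with genes below the filter were left out. Pseudogenes named after a member held at most 139 counts in any library.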

How the data were processed

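RNA of 4 Jurkat cultures, 1 library per condition, was measured by RNA-seq. The authors deposited, for each library, whole-number counts per gene and FPKM values per gene with Ensembl identifiers and symbols. Per the labels and the study's methods, reads were aligned to GRCh38 with Hisat2 2.0.4; the submitters' processing notes also name TopHat2 2.0.9 and Cufflinks 2.1.1. The counting program, annotation and strand setting are not given in the sources used here. The deposited FPKM equalled count / (total × length) with one length per gene, within a relative spread of 4.65e-05 over 12689 genes (20 or more counts in each of the 4 libraries). Start and end positions are those of the files; strands came from GENCODE 44 (49659 of 50868 identifiers found).

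The 38 members and the related gene lists were chosen with earlier results of these data known. Ratios are log2 of FPKM + 0.1 over the 11503 genes whose FPKM averaged 1 or more, called past 2-fold, without tests, since no condition has a replicate. Exact (Clopper-Pearson) 95% intervals of ratios of count shares, and normal intervals of their differences, cover counting error only; a count of 0 would be bounded at 3 counts. Total counts of 18620954 to 19685401 set this precision. Named in full were members past 2-fold in either JQ1 comparison, ATF4, DDIT3 and the 3 highest and 3 lowest of each group by mean JQ1 ratio; of each related list, up to 4 genes past 2-fold with the largest mean, and others after their values were seen. Alternatives were a pseudocount of 1, no filter, a mean FPKM of at least 5, a 1.5-fold threshold, median centring, FPKM rescaled to a common total, and TMM (edgeR 4.0.16) and DESeq2 1.42.0 scaling factors. Computations used Python 3.11.15, numpy 2.4.6, pandas 2.3.3, scipy 1.17.1 and R 4.3.3, and were tested on simulated data. Promoter sequences are RefSeq's on GRCh38.p14.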

Additional observations from a re-analysis of the deposited data

Results flagged for a closer look

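The differences below concern genes whose effect had opposite signs in 2 settings, with both counting intervals clear of 0. With 1 library per condition no difference between cultures was tested. PSPH was lower with JQ1 without PHA (log2 ratio of count shares -0.62) and higher with PHA (0.24), a difference of 0.86. For the effect of PHA, PSPH had -0.46 in DMSO and 0.40 in JQ1, which is the same difference of 0.86 by construction. Among synthetases the PHA ratio was below 0 in DMSO and above 0 in JQ1 for VARS (-0.12 and 0.26, a difference of 0.38), YARS (-0.24 and 0.10, a difference of 0.34), TARS (-0.16 and 0.08, a difference of 0.25) and KARS (-0.06 and 0.13, a difference of 0.19). MTHFD2 went the other way, with 0.06 in DMSO and -0.33 in JQ1, a difference of -0.39.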

How the results depend on the processing

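No paired analysis was possible because each condition has 1 library, and for the same reason no library could be left out. No JQ1 ratio of a member with an interval clear of 0 and no median of a member list changed sign. The number of synthetases past 2-fold without PHA, 5, became 2 with a pseudocount of 1, 2 with FPKM rescaled to a common total and 8 at 1.5-fold; with PHA 2 became 9 at 1.5-fold. For ATF4 response genes, 3 without PHA became 2 with a pseudocount of 1 (EIF4EBP1 lost), 4 with FPKM rescaled to a common total (SESN2 gained, higher), 1 at a mean FPKM of at least 5 and 11 at 1.5-fold, of which 2 (SESN2 and DDIT4) were higher. With PHA 4 became 3 with a pseudocount of 1, 1 at a mean FPKM of at least 5 and 8 at 1.5-fold, of which 1 (SESN2) was higher. The PHA comparisons went from 0 to 1 response gene each at 1.5-fold. The share of all tested genes past 1.5-fold was not computed, so the counts at 1.5-fold have no background beside them. Response genes with an interval below 0, for which the alternatives were chosen after seeing the data, went from 10 and 11 to 6 and 6 at a mean FPKM of at least 5, where fewer genes are tested. The other 76 recomputed counts stayed within 1.5 times. Of the recomputed JQ1 ratios of single members 22 fell outside the counting interval, PYCR1 the furthest, from -3.09 to -1.82 without PHA at a pseudocount of 1. Each scaling moved the median of all tested genes by less than 0.1 on the log2 scale. Depth limits CHAC1, CEBPB and DDIT3, and the lack of replicates limits every value: an interval from counts does not hold the variation between cultures.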
